A study of Sus scrofa with 20 samples.

Results

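Genes of the swine leukocyte antigen (SLA) region and its partners, which carry out antigen presentation in the pig, were examined in backfat and liver. The list held 10 symbols: the class II chains SLA-DRA, SLA-DRB1, SLA-DQA1 and SLA-DQB1, the exchange factor chain SLA-DMA, the invariant chain CD74, the class II transactivator CIITA, the class I light chain B2M and the peptide transporter subunits TAP1 and TAP2. Of these 10, 6 were paired with an Ensembl identifier of the 31907 genes in the count table by the gene names used here: SLA-DQB1, SLA-DMA, CD74, CIITA, TAP1 and TAP2. All 6 passed the filter on low counts and were among the 16275 genes tested. SLA-DRA, SLA-DRB1, SLA-DQA1 and B2M were not matched and were not analysed here, so the account of class II chains rests on a single chain, SLA-DQB1.

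The study set backfat, a subcutaneous fat depot, beside liver in Nanchukmacdon, a Korean pig breed. Backfat and liver were taken from each of 5 boars and sequenced as poly(A) RNA, giving 5 libraries per tissue and 10 in all. The labels give every animal as wild type, normal in disease state and 22 months old, and no treatment is named for either tissue. The methods of the study state a higher average age than the labels. Libraries are named here by tissue and by the boar number of their column (65, 67, 69, 71 and 72).

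An MHC class II molecule takes up peptides from ingested protein inside endosomes of dendritic cells, macrophages and B cells and shows them to CD4+ T cells. CD74 fills its groove on the way there, cathepsins cut CD74 down, and the DM exchange factor, held in check by the DO molecule, swaps the remainder for peptide, while CIITA switches these genes on together. MHC class I molecules on nearly all cells take peptides that the proteasome makes in the cytosol and that the TAP1 and TAP2 pair pumps into the endoplasmic reticulum, where tapasin (TAPBP) helps to load them, and interferon raises this whole route.

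The promoter sequences of the 6 genes are shown with short motifs through which genes of antigen presentation are switched on. Windows of 250 bases before to 50 bases after the gene start were read from RefSeq on Sscrofa11.1, the build of the count table, on the strand of the gene. All 6 genes lie on the minus strand. Capitals mark the Y box (ATTGG, bound by NF-Y), a core of the X1 box (AG, any 2 bases, AC, any 2 bases and ATG, bound by the RFX complex) and the core of the interferon-stimulated response element, ISRE (GAAA, any 2 bases and GAAA), searched on both strands. Where 2 matches overlap, their capitals run together. The letters of the X1 core were chosen after these windows had been read. The class II promoters of SLA-DQB1 and SLA-DMA show the X1 core followed by the Y box.
SLA-DQB1, chr7:24977189-24977488: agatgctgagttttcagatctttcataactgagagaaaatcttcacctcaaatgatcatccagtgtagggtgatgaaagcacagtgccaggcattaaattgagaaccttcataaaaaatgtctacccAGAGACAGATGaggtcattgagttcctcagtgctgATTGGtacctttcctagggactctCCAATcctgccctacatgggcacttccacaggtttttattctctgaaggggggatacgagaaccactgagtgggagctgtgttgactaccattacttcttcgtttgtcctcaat
SLA-DMA, chr7:25137879-25138178: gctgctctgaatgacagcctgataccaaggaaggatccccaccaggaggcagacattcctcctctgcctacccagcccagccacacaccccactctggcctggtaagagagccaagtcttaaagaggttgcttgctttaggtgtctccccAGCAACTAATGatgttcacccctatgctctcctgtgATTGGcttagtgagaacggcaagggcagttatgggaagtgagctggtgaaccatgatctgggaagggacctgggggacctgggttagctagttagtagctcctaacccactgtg
The window of CD74 held a Y box on the opposite strand and no match to the X1 core, and the window of its curated transcript held none of the motifs.
CD74, chr2:151409875-151410174: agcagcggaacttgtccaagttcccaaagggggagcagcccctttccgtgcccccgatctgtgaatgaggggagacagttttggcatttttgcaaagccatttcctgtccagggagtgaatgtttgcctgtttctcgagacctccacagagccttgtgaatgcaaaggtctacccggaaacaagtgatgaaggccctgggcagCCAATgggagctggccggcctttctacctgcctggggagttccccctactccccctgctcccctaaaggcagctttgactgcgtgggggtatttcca
The RefSeq gene start of CIITA lies 11944 bases upstream of the start of its curated transcript, and the window of that transcript is shown, chosen because it held 2 overlapping ISRE cores. The window at the CIITA gene start held a Y box and no ISRE core.
CIITA, chr3:32218782-32219081: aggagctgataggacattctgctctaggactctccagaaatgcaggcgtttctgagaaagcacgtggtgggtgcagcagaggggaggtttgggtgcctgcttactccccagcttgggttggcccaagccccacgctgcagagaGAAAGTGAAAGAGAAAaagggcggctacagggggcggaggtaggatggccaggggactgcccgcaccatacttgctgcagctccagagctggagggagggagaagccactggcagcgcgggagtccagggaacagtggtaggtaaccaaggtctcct
TAP1 and TAP2 are shown for the ISRE cores close to their starts.
TAP1, chr7:25071940-25072239: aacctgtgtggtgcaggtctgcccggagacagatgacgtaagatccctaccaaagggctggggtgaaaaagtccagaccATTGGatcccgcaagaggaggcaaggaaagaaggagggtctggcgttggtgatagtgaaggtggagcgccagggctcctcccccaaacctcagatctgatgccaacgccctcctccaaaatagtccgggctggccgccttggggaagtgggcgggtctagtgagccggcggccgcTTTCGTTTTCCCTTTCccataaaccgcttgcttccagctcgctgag
TAP2, chr7:25056866-25057165: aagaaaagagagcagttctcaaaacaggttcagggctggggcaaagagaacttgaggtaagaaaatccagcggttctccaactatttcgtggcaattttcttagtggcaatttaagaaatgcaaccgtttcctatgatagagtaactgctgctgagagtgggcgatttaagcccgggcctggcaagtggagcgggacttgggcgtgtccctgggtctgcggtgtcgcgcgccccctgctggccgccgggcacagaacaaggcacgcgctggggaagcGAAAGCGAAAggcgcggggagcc

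The X1 core began 123 bases before the start of SLA-DQB1 and the Y box 88 bases before it, 35 bases apart. In SLA-DMA the same motifs began at 100 and 64 bases before the start, 36 bases apart. Of the 7 class II genes of the region with a RefSeq window (SLA-DRA, SLA-DRB1, SLA-DQA1, SLA-DQB1, SLA-DMA, SLA-DMB and SLA-DOA), 7 held a Y box and 5 held both motifs, with 33 to 36 bases between their first bases on the same strand. Over the windows of 19556 protein-coding genes, 35.4% held a Y box, 2.27% the X1 core and 1.04% both. Because the letters of the X1 core were chosen after windows shown here had been read, its matches in them are no test against these shares. Among TAP1, TAP2 and the immunoproteasome genes PSMB8 and PSMB9, 3 of 4 held an ISRE core, against 3.57% of all windows. The windows of TAP1 and PSMB9 overlap and hold the same ISRE cores, so these 3 genes are not independent counts. Of the same 4 genes, 2 held a Y box and 0 the X1 core. These 2 were TAP1 and PSMB9, which share the same Y box site. With a Y box in 35.4% of all windows, this motif was not particular to the class II genes. These are matches of letters only, and no factor binding was measured.

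SLA-DQB1 lies at chr7:24969034-24977238, TAP2 at chr7:25045085-25056915, TAP1 at chr7:25062772-25071989 and SLA-DMA at chr7:25133494-25137928. They share a stretch of 357.6 kb with 7 other genes of antigen presentation. TAP1 and PSMB9 start 144 bases apart and run in opposite directions, so the ISRE cores of the TAP1 window also lie in the window of PSMB9. CD74 lies at chr2:151402210-151409924 and CIITA at chr3:32171706-32230775. In the RefSeq annotation, SLA-DMA lies within the span of BRD2 on the other strand but shares 0 exon bases with it. CIITA shares 636 of its 12128 exon bases with DEXI on the other strand. The reads were counted without regard to strand, and reads that fell in more than 1 gene or mapped to more than 1 place were left out, so genes with near-identical copies, the SLA genes above all, are undercounted.

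The libraries held between 43820042 and 61772737 counted fragments. Raw counts of the 6 genes ran from 610 (SLA-DMA, liver 71) to 135190 (CD74, backfat 65), and the counting error of the lowest of them was 4.05%. The labelled tissues matched their markers: 8 of 8 adipocyte markers were higher in backfat and 8 of 8 hepatocyte markers were higher in liver. Mitochondrial genes took 6.38 to 20.2% of the counts in 9 libraries and 44.5% in liver 67. TMM scaling factors, which allow for a few abundant transcripts taking up reads, ran from 1.18 to 1.44 in backfat and from 0.649 to 0.916 in liver. Values are therefore given as CPM, counts scaled to a common library total, after TMM normalization, and a log2 fold change is positive where backfat was higher.

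Across the 6 genes, SLA-DMA was the only one called between the tissues at an adjusted p of at most 0.05 (quasi-likelihood test of edgeR, Benjamini-Hochberg over all tested genes), and it was higher in backfat. Of the 6 genes, 1 was called higher in backfat and 0 higher in liver, while 28.0% of all tested genes were called higher in backfat, 27.0% higher in liver and 55.0% in either direction. None of the 6 met the study's threshold for a DEG, an adjusted p of at most 0.05 with a log2 fold change of at least 2 either way, which 22.3% of all genes met. The median log2 fold change of the 6 genes was 0.25, against 0.00014 over all genes, whose median absolute log2 fold change was 0.81. In bulk tissue, fewer cells of a type and less RNA per cell cannot be told apart, and this holds for each difference given here.

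SLA-DMA, a chain of the peptide exchange factor, was measured in backfat at 41.4, 24.2, 48.0, 24.9 and 25.8 CPM in boars 65, 67, 69, 71 and 72. In liver of the same boars it stood at 17.9, 18.4, 16.8, 19.3 and 19.3 CPM. Every backfat library lay above every liver library, and backfat was higher in 5 of 5 boars. The mean was 32.9 ± 11.1 CPM in backfat and 18.3 ± 1.05 CPM in liver (SD, n = 5 each), a 1.79-fold difference (log2 fold change 0.84, SE 0.21, 95% interval 0.39 to 1.30, adjusted p = 0.00451). Groups that did not overlap were seen for 1 of the 6 genes and for 42.6% of all tested genes. The backfat values fell into a higher pair, boars 65 and 69, and 3 values close to 25 CPM, while the liver values were almost level.

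SLA-DQB1, the beta chain of the class II DQ molecule, was measured in backfat at 261, 252, 299.5, 171 and 216 CPM in boars 65, 67, 69, 71 and 72. In liver it stood at 122, 269, 96.2, 191 and 157 CPM. The tissues overlapped: liver 67 lay above 4 of the 5 backfat libraries, and backfat was higher in 3 of 5 boars. The log2 fold change was 0.52 (SE 0.28, 95% interval -0.08 to 1.12, adjusted p = 0.128). Without liver 67 the difference was called, with a log2 fold change of 0.72 and an adjusted p of 0.0216, and over 19 alternatives the adjusted p ran from 0.00078 to 0.254. Liver 67 is also the library with the highest mitochondrial share and the highest summed level of erythroid markers. That sum, without TMM, was 1292 CPM, against 63.2 to 287 CPM in the other livers. The part of either in the SLA-DQB1 value of liver 67 was not tested.

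CD74, the invariant chain, was the most abundant of the 6. Its levels in backfat were 1525, 1524, 2024, 1380.3 and 1543 CPM in boars 65, 67, 69, 71 and 72. In liver they were 819.8, 2631, 761, 1849 and 1326 CPM. The 5 backfat libraries all lay within the range of the livers, which spanned 3.46-fold. The log2 fold change was 0.11 (SE 0.38, 95% interval -0.70 to 0.93, adjusted p = 0.815), and its sign turned to -0.02 without liver 65 and to -0.05 without liver 69.

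CIITA, the transactivator that drives class II transcription, stood in backfat at 50.6, 44.7, 59.1, 43.8 and 42.3 CPM in boars 65, 67, 69, 71 and 72. In liver it was measured at 38.3, 58.2, 32.1, 68.3 and 54.3 CPM. Backfat lay inside the range of the livers again, and backfat was higher in 2 of 5 boars. The log2 fold change was -0.06 (SE 0.21, 95% interval -0.51 to 0.39, adjusted p = 0.820). The sign turned to 0.04 without liver 71, and under scaling by library size only it was 0.70 and called (adjusted p = 0.00479; 0.00479 to 0.994 over 19 alternatives).

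**Figure D1:**
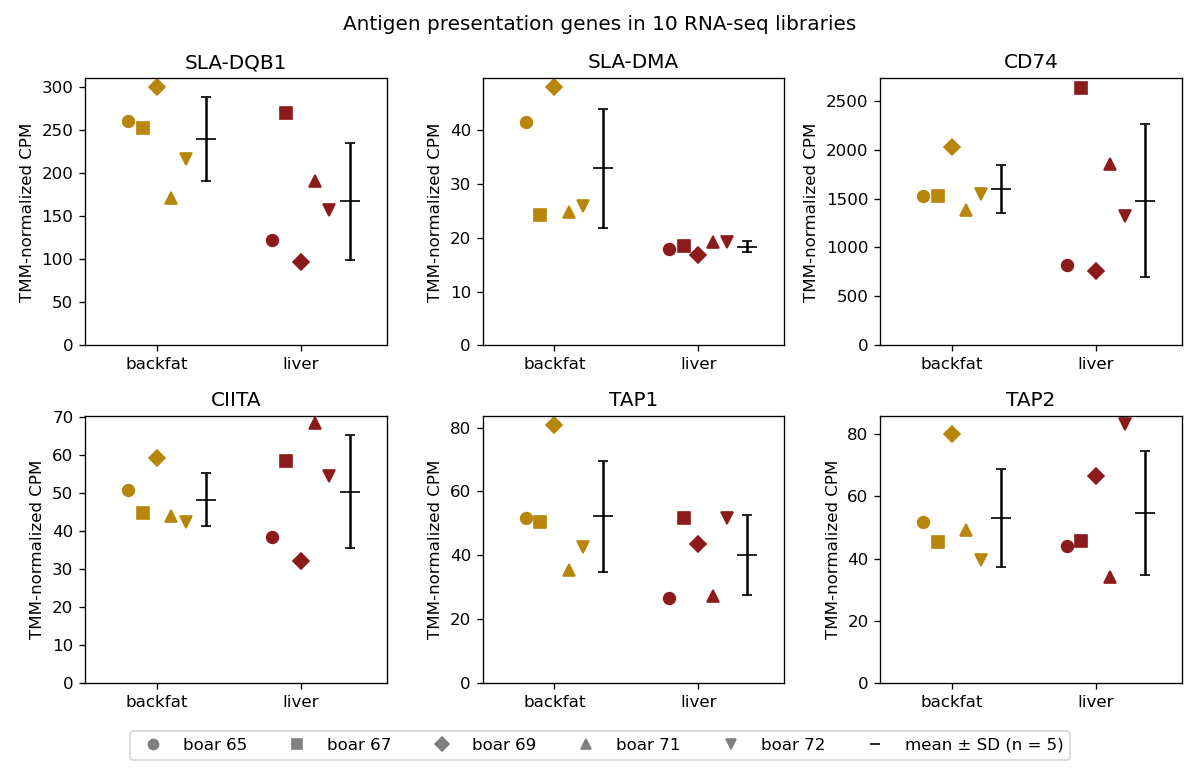
TMM-normalized CPM (y axis, from 0) of the 6 genes in 5 backfat and 5 liver libraries (x axis), with a symbol for each boar and the mean ± SD (n = 5) at the right of each group. SLA-DMA is the gene whose tissues do not overlap (24.2 to 48.0 against 16.8 to 19.3 CPM), and CD74 ranges from 761 to 2631 CPM in liver.

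TAP1 and TAP2 together form the transporter of class I peptides. TAP1 was measured in backfat at 51.8, 50.5, 80.8, 35.4 and 42.5 CPM in boars 65, 67, 69, 71 and 72, and in liver at 26.6, 51.8, 43.4, 27.4 and 51.5 CPM. The tissues overlapped, with backfat 69 above all other libraries. Its log2 fold change was 0.38 (SE 0.26, 95% interval -0.19 to 0.95, adjusted p = 0.239). Leaving out 1 library moved it between 0.17 (without backfat 69) and 0.50 (without backfat 71), with 0.23 without liver 71, and it was called in none of these fits.

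TAP2 stood in backfat at 51.6, 45.3, 80.2, 49.2 and 39.6 CPM in boars 65, 67, 69, 71 and 72. In liver it was measured at 44.0, 45.6, 66.6, 34.1 and 83.3 CPM. Liver 72 and backfat 69 were the highest libraries, so each tissue had a value above 80 CPM. The log2 fold change was -0.04 (SE 0.26, 95% interval -0.61 to 0.53, adjusted p = 0.903).

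The order of the genes by level can be read only per length, since a longer transcript gives more reads. The length used was the exon length given with the counts, not that of 1 transcript. For SLA-DMA it was 1965 bases, where the RefSeq exons hold 1063, so the order of genes close in level depends on the annotation. In CPM per kb of exon, CD74 averaged 511 in backfat and 472 in liver, SLA-DQB1 39.9 and 27.8, TAP1 19.6 and 15.1, SLA-DMA 16.7 and 9.32, TAP2 11.1 and 11.4, and CIITA 4.22 and 4.40. CD74 lay above SLA-DQB1 in every library, with 441 CPM per kb in its lowest backfat library and 243 in its lowest liver. CIITA lay below all other genes of the list, since its highest library reached 5.98 CPM per kb. The ranges of the neighbours between them overlapped in backfat (SLA-DQB1 with TAP1, TAP1 with SLA-DMA, SLA-DMA with TAP2). In liver the order of SLA-DMA and TAP2 was exchanged, and the ranges of neighbours between SLA-DQB1 and SLA-DMA overlapped there as well.

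**Figure D2:**
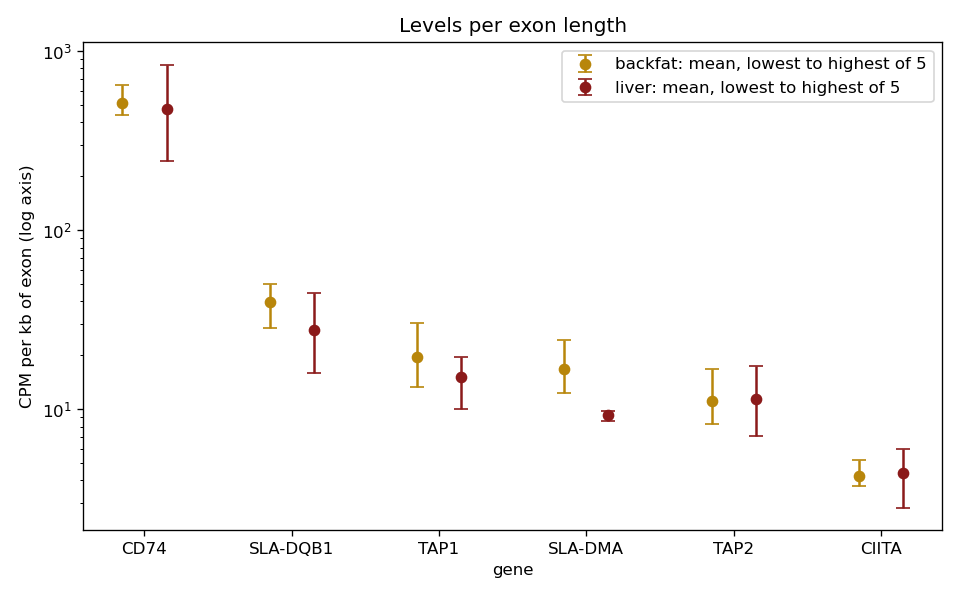
Level in TMM-normalized CPM per kb of exon (log y axis) of the 6 genes (x axis), as the mean with the lowest and highest of 5 libraries in each tissue. CD74 stands apart at 511 in backfat and 472 in liver, and CIITA is lowest at 4.22 and 4.40.

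The spread between animals differed by gene and tissue. In liver, the SD of log2 CPM was 0.76 for CD74, 0.57 for SLA-DQB1, 0.45 for CIITA and 0.08 for SLA-DMA, against a median of 0.48 over all genes. The value of SLA-DMA was larger than that of 1.27% of genes only, and that of CD74 larger than that of 75.7%. Counting error alone would give SLA-DMA in liver an SD of about 0.055. In backfat, the SD was 0.21 for CD74, 0.20 for CIITA and 0.47 for SLA-DMA, against a median of 0.33. SLA-DMA therefore varied more in backfat and little in liver, the reverse of CD74 and of 70.1% of all genes, whose SD was larger in liver.

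Backfat 69 was the highest backfat library for 6 of the 6 genes, and also for SLA-DMB, SLA-DOA, PSMB8 and PSMB9. In the same library the summed level of 8 hepatocyte markers, without TMM, was 699.5 CPM. It was 201 to 295 CPM in the other backfat libraries and 20011 to 82060 CPM in liver. The mitochondrial share of backfat 69 was 15.7%, against 7.20 to 12.5% in the other backfat libraries. The part of these in its high values was not tested. Without backfat 69, SLA-DMA was still called, with a log2 fold change of 0.67 and adjusted p values of 0.00306 to 0.0134 over all fits that left out 1 library.

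The order of the boars in liver differed from gene to gene. CD74, SLA-DQB1 and SLA-DOA each ran from highest to lowest as boars 67, 71, 72, 65 and 69, and CIITA as 71, 67, 72, 65 and 69. SLA-DMA, whose values were almost level, ran as 72, 71, 67, 65 and 69, and SLA-DMB as 67, 72, 65, 71 and 69. TAP2 ran as 72, 69, 67, 65 and 71, the same order as MX1, an antiviral gene that interferon induces. The other interferon-stimulated genes ran in other orders: ISG15, IFIT1, OAS1, OAS2 and RSAD2 began with 72, 67 and 69, and GBP2 ran as 67, 71, 72, 65 and 69, like CD74. TAP1 ran as 67, 72, 69, 71 and 65, and PSMB8 and PSMB9 as 67, 72, 69, 65 and 71. Liver 69, the lowest library for 4 of the 6 genes, was thus second for TAP2, and liver 71, second for CD74, was lowest for TAP2. The order of CD74, SLA-DQB1 and SLA-DOA was also that of the mitochondrial share (44.5, 20.2, 11.9, 6.97 and 6.38% in livers 67, 71, 72, 65 and 69), whose part was not tested. These orders are over 5 animals and carry no test.

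The summed level of the interferon-stimulated genes ranged more widely among the livers than TAP1 or TAP2 did. Over 11 genes it was 464, 2037, 1652, 254 and 3349 CPM in livers 65, 67, 69, 71 and 72, and between 420.2 and 1036 CPM in backfat, both without TMM. ISG15, a ubiquitin-like interferon product, stood at 37.4, 1185, 288, 44.2 and 1276 TMM-normalized CPM in those livers. TAP2 ranged 2.45-fold and TAP1 1.95-fold over the same animals. Liver 71 was lowest for 7 of the 11 genes and liver 72 highest for 6 of the 11.

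**Figure D3:**
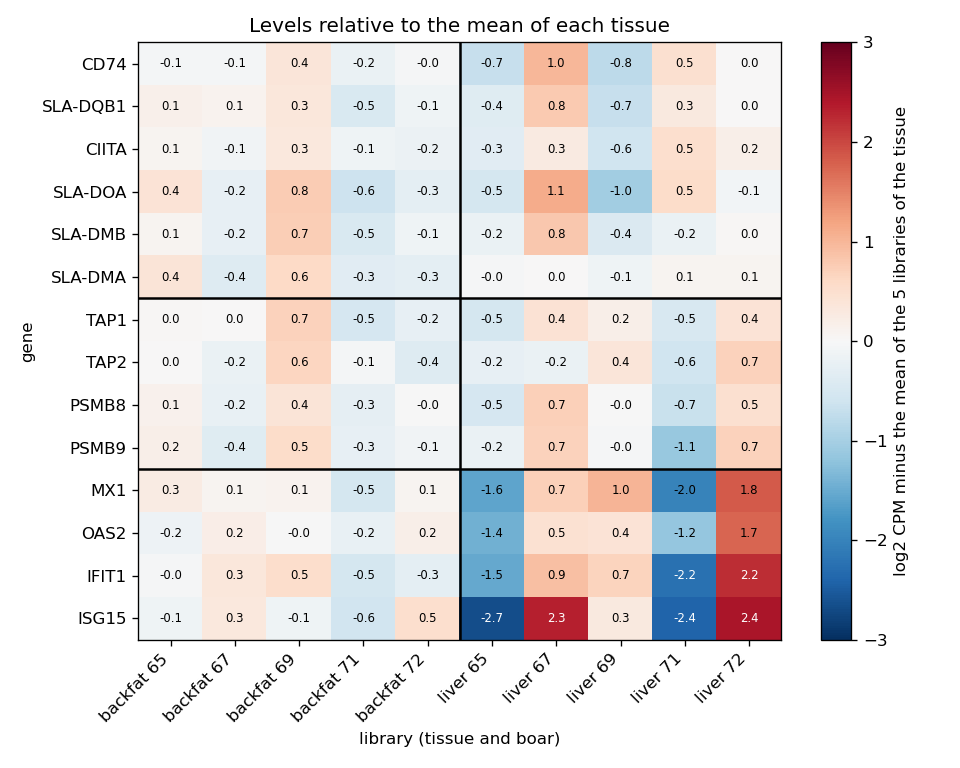
log2 CPM of 14 genes (rows) in each library (columns, by tissue and boar) minus the mean of the 5 libraries of that tissue, with red for higher and blue for lower values. Class II genes are at the top, the class I route in the middle and interferon-responsive genes below: liver 71 is above the liver mean for CD74, SLA-DQB1, CIITA and SLA-DOA, near it for SLA-DMA (0.07), and below it for SLA-DMB (-0.20), TAP1, TAP2, MX1 and ISG15.

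Of 2 further class II genes tested, 1 was called. SLA-DMB, the partner chain of SLA-DMA, stood at 40.4, 32.1, 63.2, 27.7 and 34.7 CPM in backfat and at 28.0, 55.9, 23.8, 27.9 and 33.0 CPM in liver of boars 65, 67, 69, 71 and 72, and was not called (log2 fold change 0.23, SE 0.27, adjusted p = 0.489). SLA-DOA, a chain of the DO inhibitor of DM, stood at 17.9, 11.4, 22.9, 8.76 and 11.1 CPM in backfat and at 3.64, 11.6, 2.55, 7.74 and 5.02 CPM in liver, and was higher in backfat (log2 fold change 1.24, SE 0.40, adjusted p = 0.0193) although liver 67 overlapped. Within each library, which no scaling between libraries can alter, the per-length ratio of SLA-DMA to SLA-DMB was 1.41 to 1.95 in backfat and 0.625 to 1.34 in liver, with no overlap. The ratio of SLA-DOA to SLA-DMB was 0.393 to 0.552 in backfat and 0.133 to 0.345 in liver, also without overlap. Ratios of SLA-DQB1 to CD74, CD74 to CIITA and TAP1 to TAP2 overlapped between the tissues. So did those of PSMB9 to PSMB8 and of CD74 to the pan-leukocyte marker LAPTM5. The size of each ratio depends on the exon lengths used (3732 bases for SLA-DMB, where RefSeq gives 1381), but the same lengths were used in both tissues. These pairs were chosen after values had been seen and are given without a test.

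The wider route was described with 89 listed genes, of which 68 were tested. Of these, 12 were higher in backfat, 22 were higher in liver and 34 were not called, with 1 DEG in backfat and 6 in liver. Over all tested genes, 28.0% were called higher in backfat and 27.0% higher in liver. DEGs made up 11.1% of all tested genes in backfat and 11.2% in liver. The counts per list given below, those of cell markers included, are to be read beside these same shares. When TMM was dropped and only library size was used, the median of all genes moved by 0.71 towards backfat, and 30 of the 68 were called higher in backfat and 12 in liver. Among all called genes, 50.9% were higher in backfat with TMM and 77.9% with library size alone. All 12 genes called higher in backfat kept that call, and 12 of the 22 called higher in liver kept theirs. Relative to the shifted median, the log2 fold changes of the 6 genes under library size alone were 0.58 for SLA-DQB1, 0.86 for SLA-DMA, 0.19 for CD74, -0.01 for CIITA, 0.39 for TAP1 and -0.06 for TAP2.

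Genes listed for the loading and trimming of class I peptides were higher in liver in 4 of 8 cases and higher in backfat in 2. Tapasin (TAPBP) was 2.90-fold higher in liver (log2 fold change -1.54, SE 0.21, adjusted p = 5.84e-05), at 74.2 to 121 CPM in backfat and 188 to 331 CPM in liver. The chaperones CALR, PDIA3 and HSPA5 had log2 fold changes of -1.82, -1.75 and -1.20. HSPA5 overlapped between the tissues. It was no longer called with library size alone (adjusted p = 0.244) or with the boar as a block (adjusted p = 0.0600). LNPEP and ERAP2, peptidases that trim class I peptides, were higher in backfat, at 2.23 and 0.92. The per-length ratio of TAPBP to TAP1 within a library was 0.717 to 1.08 in backfat and 2.40 to 4.60 in liver, with no overlap.

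The proteasome genes that interferon induces were called in liver in 2 of 5 cases. PSME2, an activator subunit, had a log2 fold change of -2.21 and PSMB10, a catalytic subunit, one of -1.55, and their tissues did not overlap. PSMB8 (-0.58, adjusted p = 0.0802) and PSMB9 (-0.66, adjusted p = 0.0943), which neighbour TAP1 and TAP2, were not called. Of the constitutive subunits PSMB7 was tested, at 0.08. Of 4 class I heavy chain relatives tested, CD1E, at a mean of 0.554 CPM in liver, was called with a log2 fold change of -1.60. Its tissues overlapped, and the call was lost with library size alone (adjusted p = 0.155). MR1, FCGRT and HFE were not called, and no classical class I heavy chain was matched to an identifier.

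Of 6 factors that bind class II promoters, 4 were not called: RFX5 (-0.15), NFYA, NFYB and NFYC. CREB1 was higher in backfat (0.86, adjusted p = 0.00837). RFXANK, an RFX subunit, was called lower in backfat (-0.44, adjusted p = 0.0370), but its sign turned to 0.29 with library size alone, and with the boar as a block its adjusted p was 0.0789. Of 14 genes of the interferon route, 3 were higher in backfat and 5 in liver. The receptor chain IFNGR1 (1.56), the kinase JAK1 (0.73) and IFNAR2 (0.52, adjusted p = 0.0558 with the boar as a block) were higher in backfat. JAK1 and IFNAR2 overlapped between the tissues. STAT2 (-1.89) and IRF8 (-1.85) were higher in liver. NLRC5, the class I counterpart of CIITA, was not called (0.15, SE 0.23, adjusted p = 0.604).

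**Figure D4:**
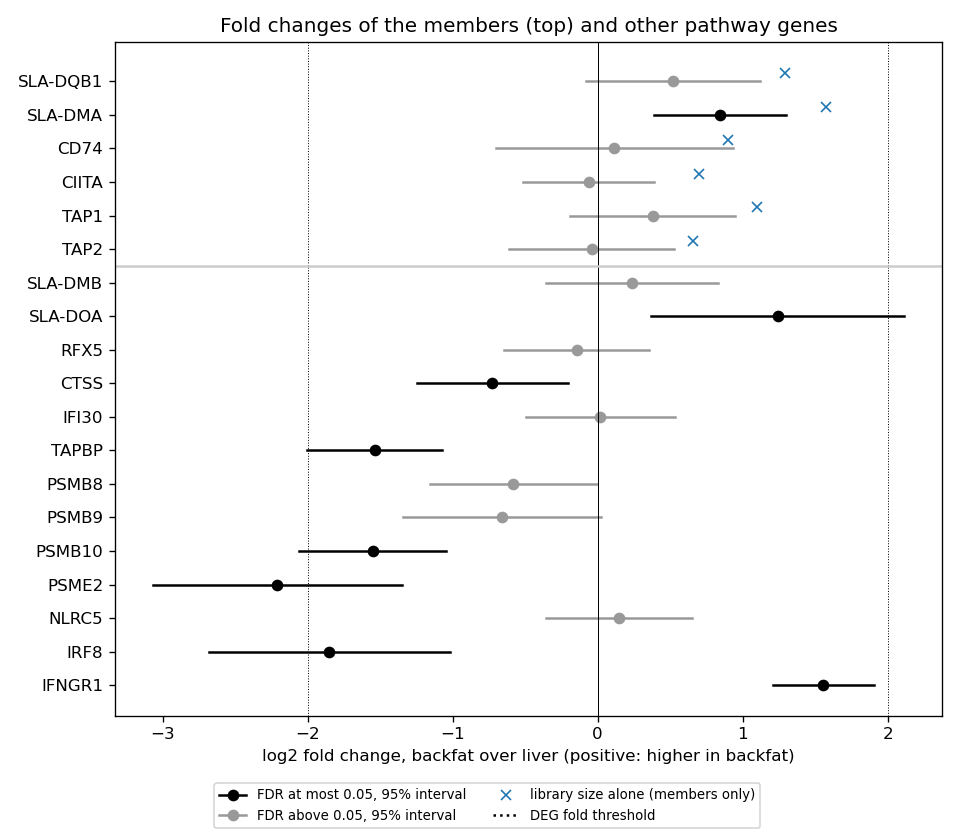
log2 fold change, backfat over liver (x axis), with its 95% interval for the 6 genes (top rows) and 13 genes of the route, in black where the adjusted p was at most 0.05, and crosses for the value with library size alone. SLA-DMA is the only gene of the 6 in black (0.84), while TAPBP (-1.54), PSME2 (-2.21) and IRF8 (-1.85) lie on the side of liver.

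Of 11 interferon-stimulated genes, 4 were higher in liver, each past the DEG threshold: the chemokine CXCL10 (-3.54), ISG15 (-3.41), OAS2 (-3.31) and MX1 (-3.16). ISG15 overlapped between the tissues, and OAS2, MX1 and CXCL10 did not. MX2 (1.24, adjusted p = 0.0471) and GBP1 (0.97) were higher in backfat, and MX2 overlapped between the tissues. Of 10 endosomal proteases and related genes, 4 were higher in liver, among them LGMN, an endopeptidase (-2.76), CTSB (-1.02, adjusted p = 0.0518 with the boar as a block) and CTSD (-0.92). CTSS, the protease that completes the cutting of CD74, was at -0.73 (adjusted p = 0.0218), and with library size alone at -0.05 (adjusted p = 0.883). With library size alone, CTSB and CTSD also lost their calls (adjusted p = 0.428 and 0.371). CTSF was higher in backfat (1.00, adjusted p = 0.0520 with the boar as a block), and IFI30, a thiol reductase, was at 0.02 and not called. The tissues overlapped for CTSS, CTSB and CTSF, and not for LGMN and CTSD. Of 7 genes of class II traffic and co-stimulation, CD9 (1.84) and CD80 (0.97) were higher in backfat. CD83 was not called (0.87, adjusted p = 0.0675) except under the boar block (0.85, adjusted p = 0.0179). MARCHF1, a ligase that removes class II molecules from the surface, was higher in liver (-0.89, adjusted p = 0.0495). Its tissues overlapped, and the call was lost with library size alone (adjusted p = 0.795).

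Markers of the cells that carry class II molecules were examined in the same fit. Of 11 macrophage and monocyte markers, 8 were higher in liver and 0 in backfat, with CD14 at -4.67 and MARCO at -3.45, and their summed level was 545 to 1079 CPM in backfat and 1239 to 1853 CPM in liver, both without TMM. Leaving CD14 out of the sum, which was chosen after seeing the data, gave 511 to 1044 CPM in backfat and 766 to 1216 CPM in liver. The tissues thus overlapped on this scale without TMM, and the sum without CD14 was not taken with TMM. In TMM-normalized CPM, CD163, C1QA, C1QB, C1QC, AIF1, MARCO and VSIG4 were each higher in liver without overlap, while CD68, CSF1R and MSR1 overlapped and were not called. Of 7 B cell markers 5 were higher in liver, of 7 T cell markers 3, and of 6 dendritic cell markers 3, with 1 higher in backfat. Those 3 dendritic cell markers were FLT3, XCR1 and BATF3. The 1 higher in backfat, with overlap, was ZBTB46, at a mean of 18.0 TMM-normalized CPM in backfat and 8.72 in liver. ZBTB46 had the highest mean of the 6 dendritic cell markers in both tissues, so it weighs most in their sum. Of 5 pan-leukocyte markers 0 were called by edgeR. The summed levels of these lists, without TMM, overlapped between the tissues. In backfat and liver they were 157 to 402 and 101 to 233 CPM for pan-leukocyte markers. They were 27.3 to 47.6 and 14.5 to 40.4 CPM for dendritic cell markers. For B cell markers they were 9.28 to 13.6 and 6.68 to 14.0 CPM, and for T cell markers 19.4 to 84.0 and 29.7 to 73.7 CPM. Without TMM the means of the pan-leukocyte, dendritic cell and B cell sums were higher in backfat, and with TMM they were higher in liver. Endothelial markers were higher in backfat in 4 of 4 cases (summed, without TMM, 787 to 1558 against 73.5 to 156 CPM). Of 3 markers of liver sinusoidal endothelium 2 were higher in liver. Of 2 lymph node genes tested, CCL21 was higher in liver with overlap (-1.56), and of 4 erythroid genes 0 were called. The part of the cell make-up in the values of the 6 genes was not tested.

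The genes whose profile over the 10 libraries lay closest to that of CD74 were DCDC1, TMSB4X, a gene with no symbol, RPS20 and AP4M1, with root mean square distances of 0.15 to 0.19 on the log2 scale after centring. SLA-DQB1 ranked 35th among 16274 genes (distance 0.25) and CIITA 132nd (0.31), while TAP1 ranked 1706th, SLA-DMA 2419th and TAP2 5699th. Because B2M was not matched, TAP1 took its place after values had been seen. Its closest genes were TIGD7, USP25, a gene with no symbol, ZFP69B and PDE10A, at 0.24 to 0.27, and TAP2 ranked 110th (0.35). These distances are descriptions: the genes were measured in the same 10 libraries, so differences between libraries in depth and mitochondrial share touch all of them.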

How the data were processed

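RNA-seq of 5 backfat and 5 liver libraries was used. The authors trimmed reads with Trimmomatic, aligned with HISAT2 on Sscrofa11.1 and counted fragments per gene with featureCounts 2.0.1 and the annotation of Ensembl release 99, with no strand setting, and the deposited values are raw counts. The 10 bisulfite samples were not used, since their calls carry no genomic position. Symbols were matched to identifiers by a table of gene names (15029 genes of the count table).

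The members and gene lists were chosen with earlier results of these data known. The tests ran in edgeR 4.0.16 under R 4.3.3, with filterByExpr by tissue, TMM, the quasi-likelihood test with tissue as the only term, and Benjamini-Hochberg adjustment over 16275 genes. The SE is the absolute log2 fold change over the square root of F. DESeq2 1.42.0 and limma 3.58.1 (voom), other scalings and filters, the boar as a block and leaving out libraries were alternatives. The named genes were the members, partners of the members, and up to 3 called genes per list and direction with the largest change; other genes were named after their values were seen, and 1 gene that the rule names is not reported here. Marker sums are CPM of all counts.

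Both tissues came from the same boars, which pairs the libraries: deviations of same-numbered libraries from their tissue means correlated at 0.049 to 0.238. Backfat 69, the lowest at 0.049, correlated best with liver 72, and each other backfat library with the liver of its own number. The labels' replicate numbers could not be tied to boars, so boars come from column names. Fits were tested on simulated counts. Figures were made with Python 3.11.15 and matplotlib 3.10.9.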

Additional observations from a re-analysis of the deposited data

Results flagged for a closer look

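A library was set apart when its gap to the nearest of the other 4 of its tissue, as a share of the group's whole range, passed the 95% critical value of Dixon, 0.71. Of 54 groups examined, 5 were set apart, all in liver 67 or backfat 69. The critical value gives about 1 in 20 by chance for independent groups of normally spread values. These groups share the same libraries, so their count is no test of an excess over chance. CD74 stood at 2024 CPM in backfat 69, against 1380.3 to 1543 CPM in the other backfat libraries. SLA-DMB stood at 55.9 CPM in liver 67, against 23.8 to 33.0 CPM. In the same liver the dendritic cell markers summed to 40.4 CPM, against 14.5 to 20.3 CPM, and the erythroid markers to 1292 CPM, against 63.2 to 287 CPM. The hepatocyte markers summed to 699.5 CPM in backfat 69, against 201 to 295 CPM. These marker sums are without TMM.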

How the results depend on the processing

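Over 19 alternatives, SLA-DMA was called higher in backfat in 19 (log2 fold change 0.67 to 1.57, adjusted p 7.55e-05 to 0.0152), and TAP2 in 0. With library size alone, 5 of the 6 genes were called, all 5 higher in backfat: SLA-DMA (1.57), SLA-DQB1 (1.29), TAP1 (1.10), CD74 (0.90) and CIITA (0.70). TAP2 was at 0.65 and not called (adjusted p = 0.0617), and the signs of CIITA and TAP2 were reversed. Of the pathway genes 30 were then higher in backfat and 12 in liver. This setting moves the median of all genes by 0.71. Without a filter on low counts, CIITA (0.0023) and TAP2 (0.012) reversed, both with an adjusted p above 0.97. Leaving out 1 library gave 1 to 2 called genes of the 6 (2 without liver 67, both higher in backfat). In those fits CD74 ran from -0.054 to 0.38 (reversed at -0.020 and -0.054 without liver 65 and 69), CIITA from -0.19 to 0.042 (reversed without liver 71, 0.042) and TAP2 from -0.23 to 0.12 (reversed at 0.019, 0.055, 0.036 and 0.12 without backfat 67, backfat 72, liver 69 and liver 72). Pathway calls ran from 28 to 35, with 8 to 13 higher in backfat, the fewest without liver 72, and 17 to 25 higher in liver. Without liver 67 and backfat 69 together, chosen after seeing the data, 2 of the 6 were called, both higher in backfat. Under the fit with the boar number as replicate block, 1 of the 6 genes was called (SLA-DMA, 0.78, adjusted p = 0.0152), and 29 pathway genes against 34. With TMM the log2 ratios of the marker sums turned from 0.68 to -0.060 for pan-leukocyte, 0.68 to -0.088 for dendritic cell and 0.25 to -0.49 for B cell markers. The causes of these reversals were not tested. DESeq2's size factors, DESeq2, limma-voom, removal of mitochondrial genes and a minimum of 10 counts in every library left the calls of the 6 genes as they were.

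The lowest raw count of the 6 genes was 610. Precision beyond counting error is set by 5 animals per tissue. The class II account rests on 1 antigen-binding chain, since 4 listed genes were not analysed here, and reads shared by similar SLA genes were not counted.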
